A study of Mus musculus with 13 samples.

Results

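The genes for collagen and laminin chains, the main proteins of fibrous matrix and of basement membranes, were followed in RNA-seq libraries of the mouse cerebellum. They were chosen by symbol: every gene of the deposited expression table named Col, a number, a and a number, or Lama, Lamb or Lamc and a digit. This gave 42 collagen and 11 laminin genes, 53 of the 22667 genes in the table, and all 53 had values. Their entries in the deposited splicing table were taken along, 2770 after removal of those that add no bases. The whole splicing table held 283765 entries, of which 30610 were alternative splice sites that add no bases. The series set cerebella of C57BL/6 mice without Sam68, an RNA-binding splicing regulator encoded by Khdrbs1, against wild-type cerebella of the same background. Total RNA was made into libraries with a modified stranded mRNA kit. The groups were Sam68 knockout at postnatal day 1 (P1, libraries 13, 14 and 15), wild type at P1 (libraries 8 and 9), knockout at P10 (libraries 10, 11 and 12), wild type at P10 (libraries 5 and 6) and wild type at P30 (libraries 1, 2 and 3). No knockout library of P30 was analysed here. The labels describe neither the knockout allele nor whether each library came from its own animal, so all p-values measure only the spread between these libraries.

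Collagens are trimers wound into a triple helix, in which glycine recurs at a fixed spacing along each chain. Laminins are trimers of an alpha, a beta and a gamma chain that polymerise on cell surfaces and, with collagen IV, form the sheet of a basement membrane. In the brain such sheets lie under the pia, where the endfeet of glia attach, and around blood vessels, while fibril-forming collagens belong to the meninges and the walls of larger vessels.

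Levels were taken from the deposited cRPKM values, a read density corrected for the positions of a transcript to which reads can be mapped uniquely. The smallest steps between values put an estimated 0.0957 to 4.05 M reads behind the cRPKM of a library, and 5 libraries lay under 0.5 M (13 and 15 of knockout P1, 11 and 12 of knockout P10, 5 of wild-type P10). The splicing table held 10.5 to 18.4 M junction reads per library, so each gene's reads at its cassette exons, scaled to the library's junction reads as RPM, served as a second measure. This second measure is not scaled to length and is compared only within a gene. Between 1 and 18 collagen and laminin genes were at 0 cRPKM in the knockout P1 libraries and between 0 and 12 in the others. In library 15, 12 of its 18 genes at 0 had at least 10 junction reads. Khdrbs1 had 5.42, 4.22 and 8.50 cRPKM in knockout against 56.5 and 74.4 cRPKM in wild type at P1. At P10 it had 2.06, 1.28 and 3.59 cRPKM in knockout against 61.2 and 56.2 cRPKM in wild type, and at P30 29.5 to 36.8 cRPKM. The sum of 10 markers of cerebellar neurons lay between 485 and 2681 cRPKM over the 13 libraries, with none of them at 0 throughout. Differences were tested with limma across all genes that averaged at least 1 cRPKM, or at least 10 junction reads, in a group. A gene was called at a Benjamini-Hochberg adjusted p below 0.05.

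Of the 53 genes, 36 averaged at least 1 cRPKM in knockout P1, 35 in wild-type P1, 30 in knockout P10, 32 in wild-type P10 and 31 in wild-type P30. The strongest at P1 in wild type were Col4a1 (37.3 ± 1.08 cRPKM, SD, n = 2), Col4a2 (27.2 ± 1.06) and Col3a1 (25.9 ± 7.17). At P30 they were Col9a3 (14.8 ± 0.957 cRPKM, SD, n = 3) and Col18a1 (12.9 ± 0.297), the only members with a mean of at least 10 at that age. The summed level of all 53 was 295, 390.0 and 367 cRPKM in knockout P1 against 252 and 304 cRPKM in wild-type P1. At P10 it was 204, 202 and 265 cRPKM in knockout against 260.2 and 209.8 cRPKM in wild type, and at P30 it was 121, 114 and 113 cRPKM in wild type. The P30 libraries lay below all others, and the knockout and wild-type ranges overlapped at both ages. Col3a1, Col4a1 and Col4a2 together made up 31.4% and 33.8% of that sum in wild-type P1 libraries, 22.5% and 25.2% at P10 and 11.9% to 14.99% at P30.

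**Figure D1:**
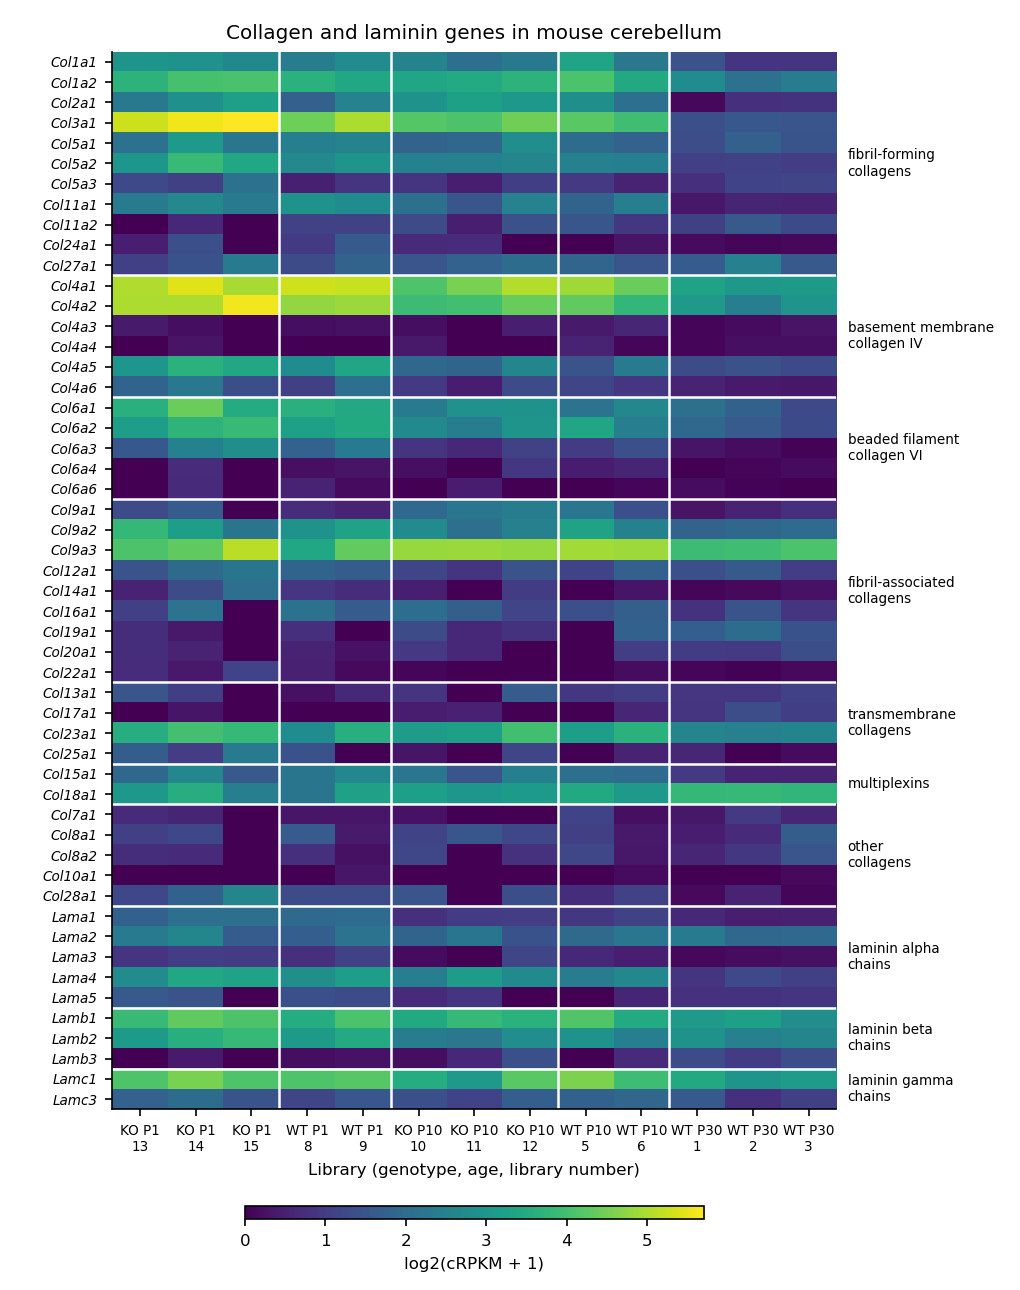
Level of 52 of the 53 genes as log2(cRPKM + 1), colour from 0 (dark) to the top of the scale (yellow), with libraries as columns and genes as rows by role. The cells of Col3a1, Col4a1 and Col4a2 are brightest at P1 and darker in the 3 P30 libraries, and 9 of the 53 genes never reached the mean of 1 cRPKM needed for a test.

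To ask how these genes change as the cerebellum matures, wild-type P30 was compared with wild-type P1. Chains of the fibrillar collagens I, II, III, V and XI, of collagens IV, VI and XV and of laminins fell, by between 2.0-fold (Lamc1) and 9.46-fold (Col3a1), while Col17a1 rose. In all, 17 of 44 tested members fell and 1 rose in cRPKM, where 15.8% of all 14063 tested genes fell and 9.66% rose. An unadjusted p below 0.05 was found for 26 members, and for 5047 of all tested genes. In junction reads 33 of 48 fell and 6 rose, where 37.2% of 11342 genes fell and 19.9% rose, and the 18 members called in cRPKM were all among these 39. The median log2 fold change of the members was −0.91 in cRPKM against −0.13 over all genes, and −1.37 in junction reads against −0.25. Rescaling with TMM factors moved the median of all genes from −0.13 to 0.01 and that of the members to −0.78, with 16 members lower and 2 higher. Fold changes are on the log2(cRPKM + 1) scale, which understates the change of low genes. In bulk tissue, fewer cells of a type and less RNA per cell cannot be told apart.

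Markers of the cell types of meninges and vessels, of neighbouring tissue and of neurons and glia were measured beside these changes. The sum of 16 meningeal and fibroblast markers was 124 to 182 cRPKM in wild-type P1 libraries, 129 to 164 at P10 and 87.0 to 156 at P30, and between P30 and P1 1 of 15 tested rose and 1 fell (median −0.62). The sum of 13 endothelial markers was 186 to 208 cRPKM at P1, 172 to 188 at P10 and 456 to 760 at P30 (1 of 13 rose, 2 fell, median −0.28). Ly6c1 was the highest of the 13 at each age, with means of 51.4, 64.9 and 453 cRPKM, and made up most of the sum at P30. For 11 pericyte and smooth muscle markers the sum was 103.9 to 115 cRPKM at P1, 157 to 158 at P10 and 107 to 124 at P30 (0 rose, 1 fell, median 0.21, 1 of 11 with an unadjusted p below 0.05). In junction reads 0 of 6 meningeal markers rose and 2 fell, 5 of 12 endothelial markers rose and 4 fell, and 0 of 6 pericyte markers rose and 3 fell. Over all tested genes 15.8% fell and 9.66% rose in cRPKM between P30 and P1, and 37.2% fell and 19.9% rose in junction reads. The counts of endothelial markers in cRPKM, and of meningeal and endothelial markers lower in junction reads, lay near those shares. They are not a result about the lists. No gene of these 3 lists was at 0 in every library. Markers of midbrain and caudal hindbrain, tissue next to the cerebellum, were also lower at P30 than at P1, with their fall before P10. Over 14 of them the sum was 44.5 to 113 cRPKM in wild-type P1 libraries, 0 to 5.86 at P10 and 5.29 to 6.77 at P30, with Sncg the highest at P1 (mean 44.5 cRPKM) and Hoxa3 and Hoxb6 at 0 in all libraries. Between P30 and P1 7 of 10 tested fell and 0 rose (median −1.89), and 4 of 7 fell in junction reads (median −4.36). Between P10 and P1 2 of 10 fell (median −1.89), and 5 of 7 in junction reads (median −5.24). Between P30 and P1, 7 of 10 markers of cerebellar neurons rose, 6 of 10 of Bergmann glia and astrocytes rose and 1 fell, and 5 of 10 of the oligodendrocyte lineage rose and 2 fell. These are set against the 9.66% of all genes that rose and the 15.8% that fell, and the glial counts that fell lay near that share. Of 9 choroid plexus markers 0 were called, with 4 at an unadjusted p below 0.05 (median 1.65). The part of all these lists in the changes of the collagen and laminin genes was not tested.

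Among the 11 fibril-forming collagens, 6 fell in cRPKM (median −1.16) and 8 in junction reads (median −2.03), and none rose in either. Of all tested genes 15.8% fell and 9.66% rose in cRPKM, and 37.2% fell and 19.9% rose in junction reads. Col3a1 (ENSMUSG00000026043), the chain of type III collagen, had 20.9 and 30.99 cRPKM in wild-type P1 libraries, 17.9 and 14.6 at P10 and 1.63, 1.91 and 1.85 at P30. Every P30 library lay far below every younger one, and the fall to P30 was the strongest among the members called in cRPKM (log2 fold change −3.24, SE 0.23, 9.46-fold lower, adjusted p = 1.63e-06). In junction reads Col3a1 had 102 and 118 RPM at P1, 69.3 and 67.3 at P10 and 10.5, 6.18 and 7.66 at P30. The Col3a1 message is built of short exons that keep the collagen repeat in frame. One 54 nt exon, at chr1:45334007-45334060 on the plus strand of GRCm38 (GENCODE M21), is shown because it has the length most typical of this class, with its 7 glycine codons of 18 in capitals.
Col3a1 exon: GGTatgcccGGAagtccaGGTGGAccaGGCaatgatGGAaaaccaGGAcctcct
Of the cassette exons counted, 39 of 85 in fibril-forming collagens measured exactly 54 nt, against 354 of 46958 over all genes. Exons of the collagen and laminin genes were counted whatever their reads, those of other genes only with at least 10 reads in several libraries. The shares over all genes thus rest on an unlike selection. A length divisible by 9, the bases of 1 repeat, was found in 76.5% of those 85 exons, in 54.5% of 235 collagen exons, in 18.8% of 64 laminin exons and in 13.8% over all genes.

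Col1a1 and Col1a2, which together form type I collagen, were lowest at P30. Col1a1 had 4.33 and 5.72 cRPKM in wild-type P1 libraries, 9.12 and 3.83 at P10 and 1.76, 0.83 and 0.84 at P30, and Col1a2 had 11.5 and 9.77, 15.98 and 10.1, and 5.86, 3.37 and 4.35 cRPKM. The P1 and P10 ranges overlapped for both genes and both fell by P30 (log2 fold change against P1 −1.51, adjusted p = 0.011, and −1.09, adjusted p = 0.0129). Their differences between P10 and P1 were 0.22 and 0.24 (adjusted p = 0.88 and 0.8). The Col1a1 value of 9.12 came from library 5, where an estimated 19 reads stood behind it. In junction reads library 5 was also the highest wild-type library, with 35.1 RPM against 18.5 in library 6 and 26.4 and 23.85 at P1.

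Col5a2, a chain of the type V collagen that nucleates fibrils, had 5.39 and 6.69 cRPKM at P1, 4.72 and 4.49 at P10 and 1.10, 1.15 and 1.05 at P30 (P30 against P1 −1.74, adjusted p = 0.00133). Its partner Col5a1 had 4.54 and 4.86, 3.04 and 2.45, and 1.56, 2.34 and 1.81 cRPKM (−0.98, adjusted p = 0.0968) and fell in junction reads (−1.32, adjusted p = 4.64e-04). Col5a3, the third chain of this type, took another course in junction reads, with 7.12 and 7.33 RPM at P1, 2.90 and 3.20 at P10 and 8.61, 10.6 and 10.4 at P30. It was lower at P10 than at P1 (−1.24, adjusted p = 0.00747) and higher at P30 than at P10 (1.68, adjusted p = 1.51e-04), while its cRPKM, with wild-type group means of 0.63 to 1.08, did not pass (0.06 and 0.30, adjusted p = 0.982 and 0.713).

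The cartilage-type chains Col11a1 and Col2a1 were lowest at P30 as well. Col11a1 had 6.45 and 5.89 cRPKM at P1, 2.59 and 4.46 at P10 and 0.30, 0.51 and 0.48 at P30 (P30 against P1 −2.33, SE 0.37, adjusted p = 5.56e-04). Its junction reads were 62.3 and 48.2 RPM at P1, 37.9 and 45.4 at P10 and 1.80, 3.75 and 2.55 at P30, and the fall was −4.39 (adjusted p = 4.47e-09). Col2a1 had 2.34 and 4.78 cRPKM at P1, 6.14 and 3.24 at P10 and 0.09, 0.73 and 0.78 at P30 (−1.55, adjusted p = 0.0149). Col24a1 fell in junction reads alone, with 13.7 and 18.5 RPM at P1, 2.27 and 1.14 at P10 and 0.174, 0.834 and 0.319 at P30, with the larger step before P10 (P10 against P1 −3.28, adjusted p = 7.82e-04). Col11a2 and Col27a1 were called at no age in either measure (P30 against P1 in junction reads 0.26 and 0.68, adjusted p = 0.392 and 0.116).

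**Figure D2:**
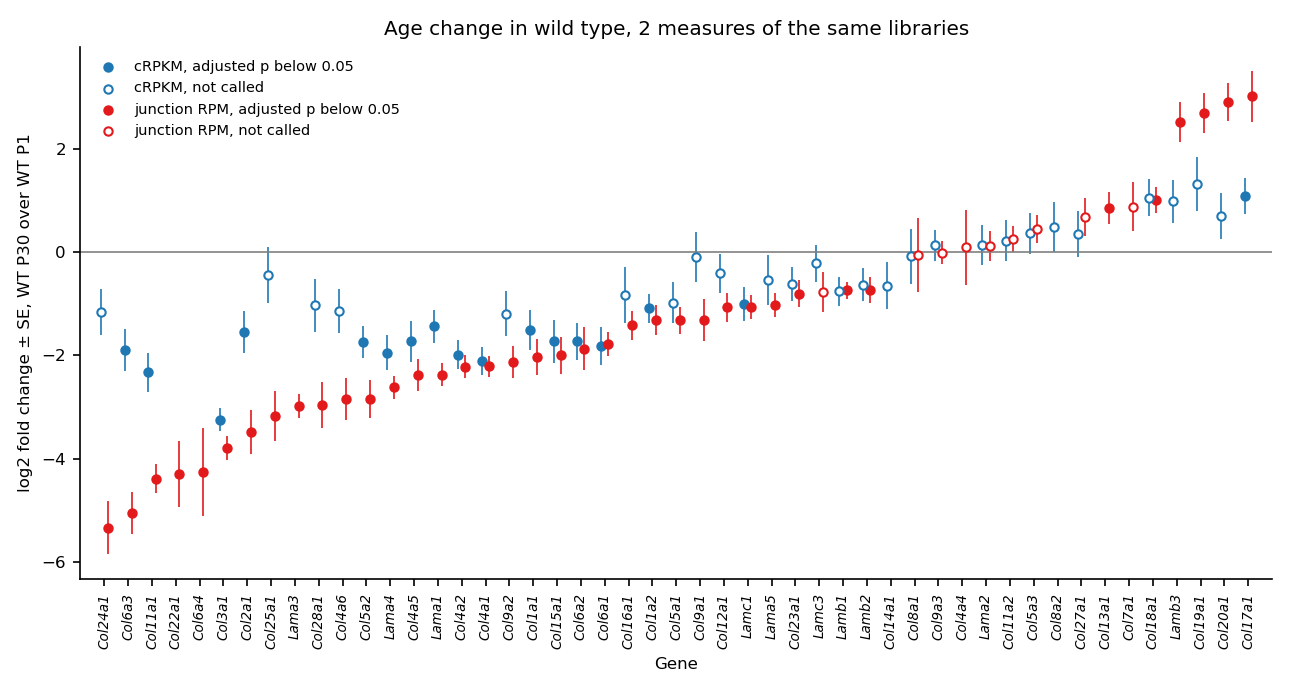
Log2 fold change (points, with bars of 1 SE) of wild-type P30 over wild-type P1 for the tested genes, in cRPKM (blue) and in junction RPM (red), filled where the adjusted p is below 0.05. Genes run from the strongest fall on the left to the strongest rise on the right, where Lamb3, Col19a1, Col20a1 and Col17a1 reach 2.51 to 3.01 in junction reads.

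Collagen IV, the basement membrane collagen, fell in cRPKM in 3 of its 4 tested chains, where 15.8% of all tested genes fell. Its 6 chains summed to 74.4 ± 3.89 cRPKM in wild type at P1 (SD, n = 2), 44.9 ± 9.45 at P10 (n = 2) and 16.3 ± 2.28 at P30 (n = 3). Col4a1 (ENSMUSG00000031502) had 38.1 and 36.5 cRPKM at P1, 28.8 and 19.97 at P10 and 8.92, 7.26 and 7.57 at P30. Col4a2 (ENSMUSG00000031503), whose product joins that of Col4a1 in the same trimer, had 26.4 and 27.9, 18.96 and 12.7, and 7.53, 4.43 and 6.73 cRPKM. For both genes the ages did not overlap. The log2 fold changes of P30 over P1 were alike, at −2.11 (SE 0.27, adjusted p = 1.13e-04) and −1.99 (SE 0.28, adjusted p = 2.31e-04), and −2.21 and −2.22 in junction reads.

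These 2 genes start head to head. In the RefSeq promoter table (build GRCm38.p6) the start of Col4a1 is at base 11312826 of chromosome 8 on the minus strand and that of Col4a2 at base 11312805 on the plus strand, so the first 22 bases of each transcript overlap. The 30 bases at chr8:11312770-11312799 (plus strand) are shown because they lie just before the Col4a2 start and inside the first transcribed bases of Col4a1. Capitals mark the motifs CCAAT and CCCTCCCC.
Col4a1 and Col4a2 starts: tccCCAATttgttggcgctgccCCCTCCCC
Searched on both strands (ATTGG and GGGGAGGG on the other), CCAAT was in 10248 of 27025 mouse promoters of this length (37.9%) and CCCTCCCC in 2810 (10.4%), each taken from 250 bases before to 50 after a gene's start. The promoters of Col4a1 and Col4a2 each held both motifs. The CCAAT marked above is not wholly within the 50 bases taken after the Col4a1 start, so the Col4a1 match is another copy. Of the 39 collagen and laminin genes with a promoter in the table, 13 held CCAAT and 11 held CCCTCCCC. These are matches of letters, and binding was not measured.

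Col4a5 and Col4a6, chains of a second collagen IV trimer, also stand head to head, with starts 1343 bases apart on the X chromosome. Col4a5 had 5.85 and 9.18 cRPKM at P1, 1.74 and 4.11 at P10 and 1.46, 1.66 and 1.42 at P30 (P30 against P1 −1.73, adjusted p = 0.00564). Col4a6 averaged 2.20 ± 1.51 cRPKM at P1, 1.08 ± 0.290 at P10 and 0.37 ± 0.0964 at P30 (−1.14, adjusted p = 0.0714) and fell in junction reads (−2.84, adjusted p = 2.52e-05). The remaining pair, Col4a3 and Col4a4, never averaged above 0.43 cRPKM in a group.

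Collagen VI, which forms beaded filaments around cells, fell in cRPKM in all 3 chains that passed the filter, where 15.8% of all genes fell. Col6a1 had 11.4 and 9.80 cRPKM in wild-type P1 libraries, 3.48 and 5.26 at P10 and 3.33, 2.41 and 1.38 at P30 (P30 against P1 −1.82, adjusted p = 0.00311). Col6a2 averaged 9.21 ± 1.07, 6.91 ± 3.54 and 2.11 ± 0.670 cRPKM (−1.73, adjusted p = 0.00384). Col6a3 had 2.45 and 4.20 cRPKM at P1, 0.98 and 1.61 at P10 and 0.26, 0.14 and 0.04 at P30 (−1.89, adjusted p = 0.00503). It was near 0 at P30, with 1.45, 0.556 and 0.830 junction RPM against 26.5 and 34.3 at P1. The minor chains Col6a4 and Col6a6 never averaged above 0.44 cRPKM in a group, and Col6a4 fell in junction reads (adjusted p = 5.27e-04).

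The 9 fibril-associated collagens moved in both directions, and in cRPKM none passed between P30 and P1 (median −0.26 over 8 tested). Col9a3, a chain of type IX collagen and the strongest member at P10 and P30, had 9.51 and 19.0 cRPKM in wild-type P1 libraries, 29.1 and 28.1 at P10 and 14.1, 14.5 and 15.9 at P30. Both P10 values stood above all other wild-type ones, although the differences did not pass in cRPKM (P10 against P1 1.03, adjusted p = 0.124, P30 against P10 −0.90, adjusted p = 0.0671). In junction reads the later one did (−0.69, adjusted p = 0.0206). In that measure 5 of the 8 tested were lower at P30 than at P1 (Col9a1, Col9a2, Col12a1, Col16a1 and Col22a1) and 2 rose. Of all genes 37.2% fell and 19.9% rose, so the count that rose lay near its share and is not a result about this class. Col19a1, a collagen made by some neurons, had 1.71 and 1.38 junction RPM at P1, 11.5 and 7.76 at P10 and 8.72, 14.2 and 8.49 at P30 (P30 against P1 2.69, adjusted p = 2.76e-05). Col20a1 had 1.90 and 2.56, 9.83 and 10.3, and 10.5, 24.8 and 18.5 (2.91, adjusted p = 7.49e-06). For both the P1 libraries lay below all later ones, and their cRPKM differences, 1.32 and 0.70, did not pass (adjusted p = 0.085 and 0.282). Col14a1 was read in cRPKM alone, where its highest group mean was 1.73, and was not called.

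Of the transmembrane collagens, Col17a1, a component of the junctions that fix epithelia to their basement membrane, was listed at 0 cRPKM in both wild-type P1 libraries, at 0 and 0.53 at P10 and at 0.83, 1.53 and 1.09 at P30 (adjusted p = 0.0375). Its junction reads were few but ran the same way, at 0.190 and 0.277 RPM at P1, 0.882 and 0.869 at P10 and 2.09, 1.88 and 2.55 at P30 (3.01, adjusted p = 9.10e-05). Col25a1, a collagen of neurons, had 33.4 and 13.3 junction RPM at P1, 6.996 and 3.04 at P10 and 3.95, 2.02 and 1.53 at P30 (P30 against P1 −3.17, adjusted p = 4.76e-05), while its cRPKM, at 0 in 1 wild-type library of each age, gave −0.45 (adjusted p = 0.611). Col23a1 averaged 8.40 ± 3.58, 9.76 ± 2.42 and 4.89 ± 0.236 cRPKM (−0.62, adjusted p = 0.205) and fell in junction reads (−0.81, adjusted p = 0.0144). Col13a1, which never averaged above 0.98 cRPKM in a group, rose in junction reads (0.86, adjusted p = 0.0292).

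The multiplexins, basement membrane collagens with interrupted helices, parted. Col15a1 had 3.64 and 5.22 cRPKM at P1, 3.31 and 2.96 at P10 and 0.97, 0.48 and 0.45 at P30 and fell (−1.73, adjusted p = 0.00833). Col18a1, the source of endostatin, had 3.67 and 8.55, 10.1 and 7.52, and 12.9, 13.2 and 12.6 cRPKM. Its P30 libraries lay above all younger ones, with a difference of 1.05 (adjusted p = 0.0516) in cRPKM and a rise that passed in junction reads (adjusted p = 0.0029). The sum of 10 choroid plexus markers was 18.6 to 23.1 cRPKM in wild-type P1 libraries, 15.01 to 293 at P10 and 8.18 to 1141 at P30. Ttr was the highest of them at P10 and P30, with means of 134 and 468 cRPKM. Between P30 and P1 0 of 9 were called, 4 with an unadjusted p below 0.05. In junction reads 2 of 5 were higher and 1 lower, where 19.9% and 37.2% of all genes were. The part of this sum in the Col18a1 values was not tested. Among the other collagens Col28a1 fell in junction reads (−2.96, adjusted p = 4.05e-05), Col8a1 and Col8a2 did not pass, and Col7a1 and Col10a1 were too low for a cRPKM test.

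Laminin alpha chains, which carry the sites for cell receptors, followed several courses. Lama1 (ENSMUSG00000032796), the alpha chain of the early pial basement membrane, had 2.89 and 3.01 cRPKM in wild-type P1 libraries, 0.89 and 1.17 at P10 and 0.57, 0.39 and 0.42 at P30, with the larger step before P10. The P30 level was lower than that at P1 (−1.44, adjusted p = 0.00441), and in junction reads the P10 level was too (−1.44, adjusted p = 9.50e-04). Lama4, an alpha chain of vessel walls, had 6.22 and 8.06 cRPKM at P1, 4.24 and 5.33 at P10 and 0.83, 1.39 and 1.10 at P30, with the larger step after P10 (P30 against P10 −1.46, adjusted p = 0.0118). Lama2, the alpha chain known from muscle and from glial and vascular basement membranes, had 2.25 and 3.48, 2.92 and 3.69, and 4.19, 2.73 and 2.86 cRPKM with overlapping ranges at all ages (P30 against P1 0.14, adjusted p = 0.847, and 0.12, adjusted p = 0.748, in junction reads). Lama5, a second vascular alpha chain, had 23.3 and 28.1 junction RPM at P1, 6.05 and 8.20 at P10 and 11.3, 13.4 and 13.3 at P30. It was lowest at P10 (P10 against P1 −1.86, adjusted p = 9.60e-05) and higher again at P30 (P30 against P10 0.84, adjusted p = 0.00815), while its cRPKM, listed at 0 in library 5, passed at no age. Lama3, an epithelial alpha chain under the cRPKM filter, had 12.2 and 13 junction RPM at P1, 4.41 and 3.47 at P10 and 1.51, 1.53 and 1.66 at P30 (P30 against P1 −2.98, adjusted p = 5.16e-08).

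Of the beta and gamma chains, the broadly used Lamb1 had 10.5 and 15.95 cRPKM at P1, 16.7 and 10.2 at P10 and 7.38, 8.49 and 6.08 at P30 (P30 against P1 −0.76, adjusted p = 0.068, and −0.74, adjusted p = 0.0013, in junction reads). Its P30 libraries lay below all younger wild-type ones. Lamb2, the beta chain of mature vessel and synaptic basement membranes, had 7.58 and 10.2, 6.58 and 4.48, and 6.54, 4.61 and 5.08 cRPKM (−0.63, adjusted p = 0.184) and fell in junction reads (−0.73, adjusted p = 0.0203). Lamc1, the gamma chain of most laminins, had 16.7 and 17.6 cRPKM at P1, 22.7 and 14.2 at P10 and 9.99, 6.75 and 7.73 at P30 and fell 2.0-fold (adjusted p = 0.0444). Lamb3, an epithelial beta chain, rose in junction reads, with 0.854 and 0.899 RPM at P1, 1.83 and 1.68 at P10 and 5.47, 5.70 and 4.47 at P30 (2.51, adjusted p = 5.33e-05). Lamc3 was not called in either measure (−0.22, adjusted p = 0.732, and −0.77, adjusted p = 0.103, in junction reads).

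**Figure D3:**
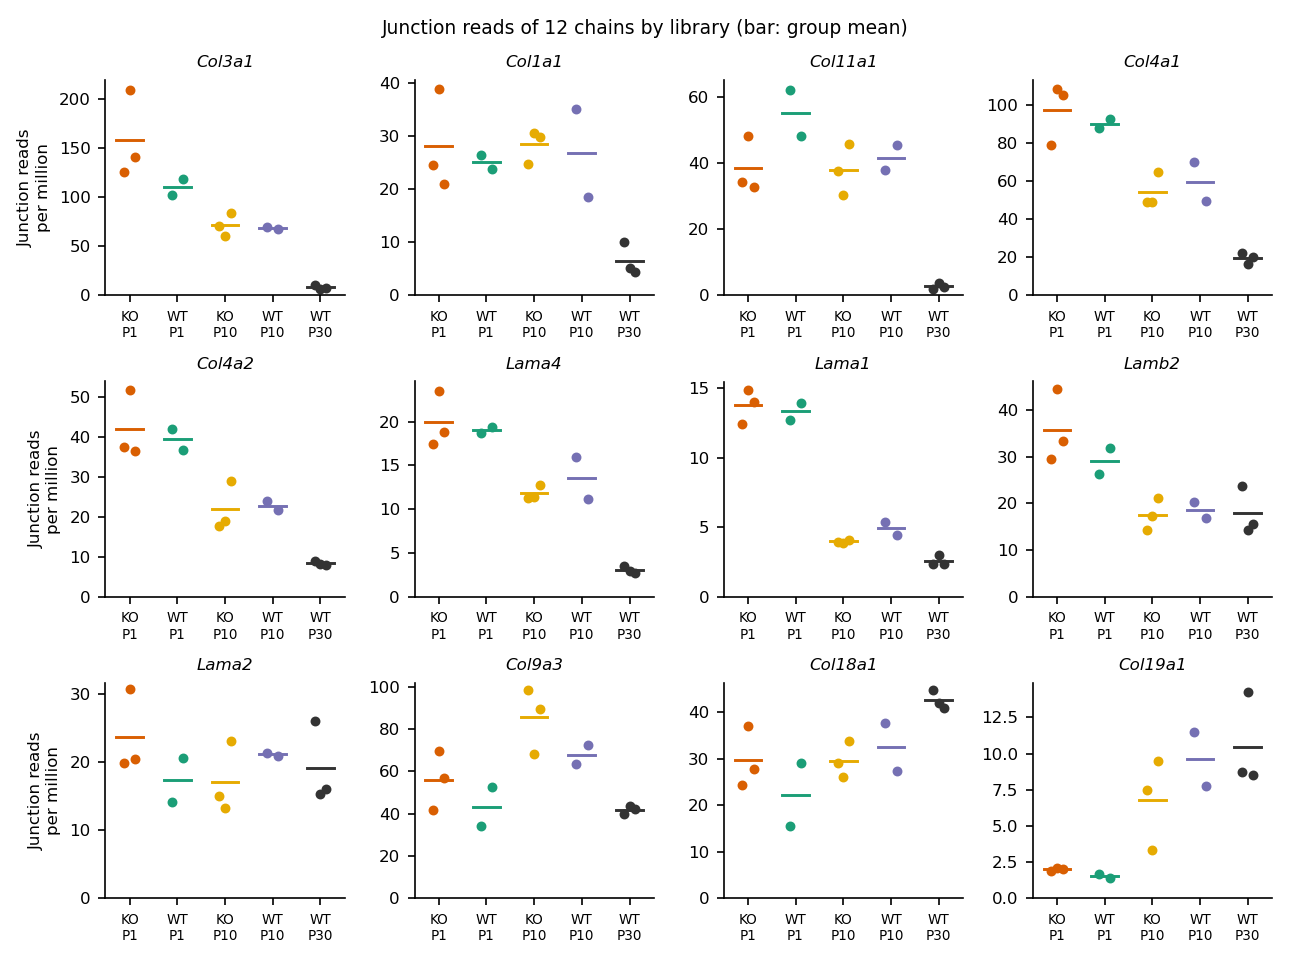
Junction RPM (vertical axis, from 0) of 12 chains in each library (points), with a bar for the group mean, for knockout P1, wild-type P1, knockout P10, wild-type P10 and wild-type P30. Col3a1, Col11a1, Col4a1, Col4a2 and Lama4 are lowest at P30, Lama1 drops already by P10, Lama2 overlaps at all ages, and Col19a1 stands at 1.38 to 2.11 at P1 and at 3.34 to 14.2 in the later libraries.

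Which of these changes belong to the first 10 days was asked by comparing wild-type P10 with wild-type P1. In cRPKM 0 of 44 members were called by limma (2.20% of all genes rose and 1.85% fell), and the smallest adjusted p was 0.124 for Col9a3. An unadjusted p below 0.05 was found for 9 members, and for 2293 of all 14063 genes. In junction reads 11 of 48 fell and 3 rose, where 11.7% and 10.3% of all genes did. Here 24 members had an unadjusted p below 0.05, as had 3845 of all 11342 genes. Among those that fell were the laminin chains Lama1, Lama3 and Lama5 and the collagen chains Col4a2, Col4a6, Col5a1, Col5a3, Col22a1, Col24a1 and Col25a1, and those that rose were Col17a1, Col19a1 and Col20a1. Between P10 and P30, 11 of 44 fell and none rose in cRPKM, where 9.73% of all genes fell and 5.02% rose: Col1a1, Col1a2, Col2a1, Col3a1, Col4a1, Col4a2, Col5a2, Col6a2, Col11a1, Col15a1 and Lama4. Col3a1 had the strongest of these changes (−2.62, adjusted p = 1.97e-05). With wild-type P10 library 5 left out, 4 genes were called. In junction reads 28 of 48 fell and 5 rose (Col5a3, Col7a1, Col17a1, Lama5 and Lamb3), where 30% and 14.2% of all genes did, and with library 5 left out the total was 21. The 3 wild-type ages share libraries between these comparisons.

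The knockout cerebella were compared between P10 and P1 in the same way. In cRPKM 7 of 44 members fell and none rose, where 4.59% of all genes fell and 5.58% rose. Col3a1 had 17.3, 16.3 and 21.0 cRPKM in knockout at P10 against 37.3, 47.2 and 51.1 cRPKM in knockout at P1, without overlap (log2 fold change −1.26, SE 0.21, adjusted p = 0.00291). Col4a2 had 14.04, 14.7 and 19.7 cRPKM at P10 against 31.2, 31.1 and 47.3 at P1 (−1.12, adjusted p = 0.0146), and Lamb2 had 4.31, 3.81 and 5.94 against 7.68, 11.2 and 13.1 (−1.02, adjusted p = 0.0405). Lama1 had 0.74, 1.0 and 1.05 cRPKM at P10 against 2.41, 3.22 and 3.31 at P1 (−1.04, adjusted p = 0.0338). Col6a3 and Col4a5 fell by 1.44 and 1.24 on the log2 scale (adjusted p = 0.0301 and 0.0415). With library 10 or library 11 left out 1 gene was called, and with the 5 shallow libraries left out none, where each of these groups kept 1 library. In the deeper junction reads 24 of 48 fell and 4 rose, where 16.5% and 14% of all genes did, and all 7 were among them. The 4 that rose were Col9a3, Col17a1, Col19a1 and Col20a1, with log2 fold changes of 0.62, 1.57, 1.61 and 2.10.

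To ask whether the loss of Sam68 changes the matrix genes at P1, knockout was compared with wild type. By limma 0 of 44 members were called in cRPKM (0.0356% of all genes were) and 0 of 48 in junction reads (0.0176%), with 2 at an unadjusted p below 0.05 in each. Of all genes 953 of 14063 and 893 of 11342 had such a p. The median difference of the members was 0.22 in cRPKM against −0.04 over all genes, and 0.23 in junction reads against 0.04. Col3a1 had the smallest p in cRPKM, with 37.3, 47.2 and 51.1 cRPKM in knockout and 20.9 and 30.99 cRPKM in wild type. The groups did not overlap, and the log2 difference of 0.79 (SE 0.23, 95% interval 0.28 to 1.30) had an adjusted p of 0.704. In junction reads Col3a1 had 126, 210 and 142 RPM in knockout against 102 and 118 in wild type (0.49, adjusted p = 0.63). The sum of 16 meningeal and fibroblast markers was 146 to 289 cRPKM in knockout and 124 to 182 in wild type at P1 (0 of 15 called, 1 with an unadjusted p below 0.05, median 0.28), and its part in the Col3a1 values was not tested. Markers of midbrain and caudal hindbrain summed to 8.97 to 43.3 cRPKM in knockout and 44.5 to 113 in wild type over 14 genes, of which Hoxa3 and Hoxb6 were at 0 in all libraries, with a median of −1.30 over 10 tested. Markers of oligodendrocytes and of Bergmann glia had medians of −0.97 and −0.62 and those of cerebellar neurons 0.54, over 10 tested genes each and with 5 to 6 at an unadjusted p below 0.05. No gene of these lists was called, and their part was not tested either.

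Other members with small p-values at P1 differed between the measures or within groups. Col11a2, a type XI chain, was at 0, 0.56 and 0 cRPKM in knockout against 1.14 and 1.15 in wild type, but had 5.70, 7.47 and 8.69 junction RPM in knockout against 10.4 and 8.43 in wild type, where the groups overlapped. Col9a3 had 16.3, 19.0 and 33.4 cRPKM in knockout against 9.51 and 19.0 in wild type (0.65, adjusted p = 0.735), with the upper wild-type library inside the knockout range. Col5a3 averaged 1.99 ± 1.27 cRPKM (n = 3) in knockout and 0.63 ± 0.311 (n = 2) in wild type (0.81, adjusted p = 0.735). In junction reads Lamb1 had 64.3, 63.3 and 67.2 RPM in knockout against 39.6 and 51.4 in wild type (0.52, adjusted p = 0.488), without overlap. Its cRPKM of 13.5, 18.9 and 16.4 in knockout against 10.5 and 15.95 in wild type overlapped (0.29).

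The core chains were not called at P1. The log2 difference in cRPKM was −0.12 for Col4a1, 0.39 for Col4a2, 0.00 for Lama1, 0.28 for Lama2, 0.13 for Lama4, 0.22 for Lamb2 and 0.10 for Lamc1. Lama5 gave −0.35 with library 15 at 0. Among fibrillar chains Col1a1 had 6.8, 6.67 and 5.33 cRPKM in knockout against 4.33 and 5.72 in wild type, and Col11a1 4.12, 5.42 and 4.11 against 6.45 and 5.89. The median SE was 0.39 in cRPKM and 0.31 in junction reads. The 95% interval lay within 2-fold in both directions for 13 of 44 members in cRPKM and 27 of 48 in junction reads, so for the others a difference of that size could not be bounded at this depth.

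At P10 the same comparison called 0 of 44 members in cRPKM (0.00711% of all genes), where none had an unadjusted p below 0.05, and 0 of 48 in junction reads (0.00882%), where 2 did. Of all genes 748 of 14063 and 1687 of 11342 had such a p. The member medians were 0.01 and −0.05, against −0.03 and 0.02 over all genes. Lamc1 had the smallest p, with 10.5, 7.47 and 17.9 cRPKM in knockout and 22.7 and 14.2 cRPKM in wild type. The groups overlapped, and the difference of −0.63 (SE 0.33, adjusted p = 0.884) was −0.14 in junction reads. Col2a1 had 6.63, 8.40 and 7.2 cRPKM in knockout against 6.14 and 3.24 in wild type (0.61, adjusted p = 0.906), and in junction reads the difference was −0.04. Col1a1 had 4.84, 3.21 and 3.94 cRPKM in knockout against 9.12 and 3.83 in wild type (−0.50, adjusted p = 0.908), a difference that was 0.04 without wild-type library 5 and 0.15 in junction reads. Lamc3 gave −0.41 (adjusted p = 0.919). In junction reads Lama5 had 11.3, 8.91 and 10.9 RPM in knockout against 6.05 and 8.20 in wild type, without overlap (0.55, adjusted p = 0.295).

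At P10 the network chains Col4a1 (−0.06), Col4a2 (0.04), Lama1 (−0.07), Lama2 (−0.27), Lama4 (0.24), Lamb1 (−0.17) and Lamb2 (−0.20) had small log2 differences in cRPKM. The 95% interval lay within 2-fold for 18 of 44 members in cRPKM and 24 of 48 in junction reads. Whether the knockout effect differed between the ages was tested as an interaction, with 0 of 44 members called in cRPKM (0.0142% of all genes, none with an unadjusted p below 0.05) and 0 of 48 in junction reads (0%, 2 with an unadjusted p below 0.05). Of all genes 728 of 14063 and 709 of 11342 had such a p. Col3a1 had an interaction of −0.64 (adjusted p = 0.854).

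**Figure D4:**
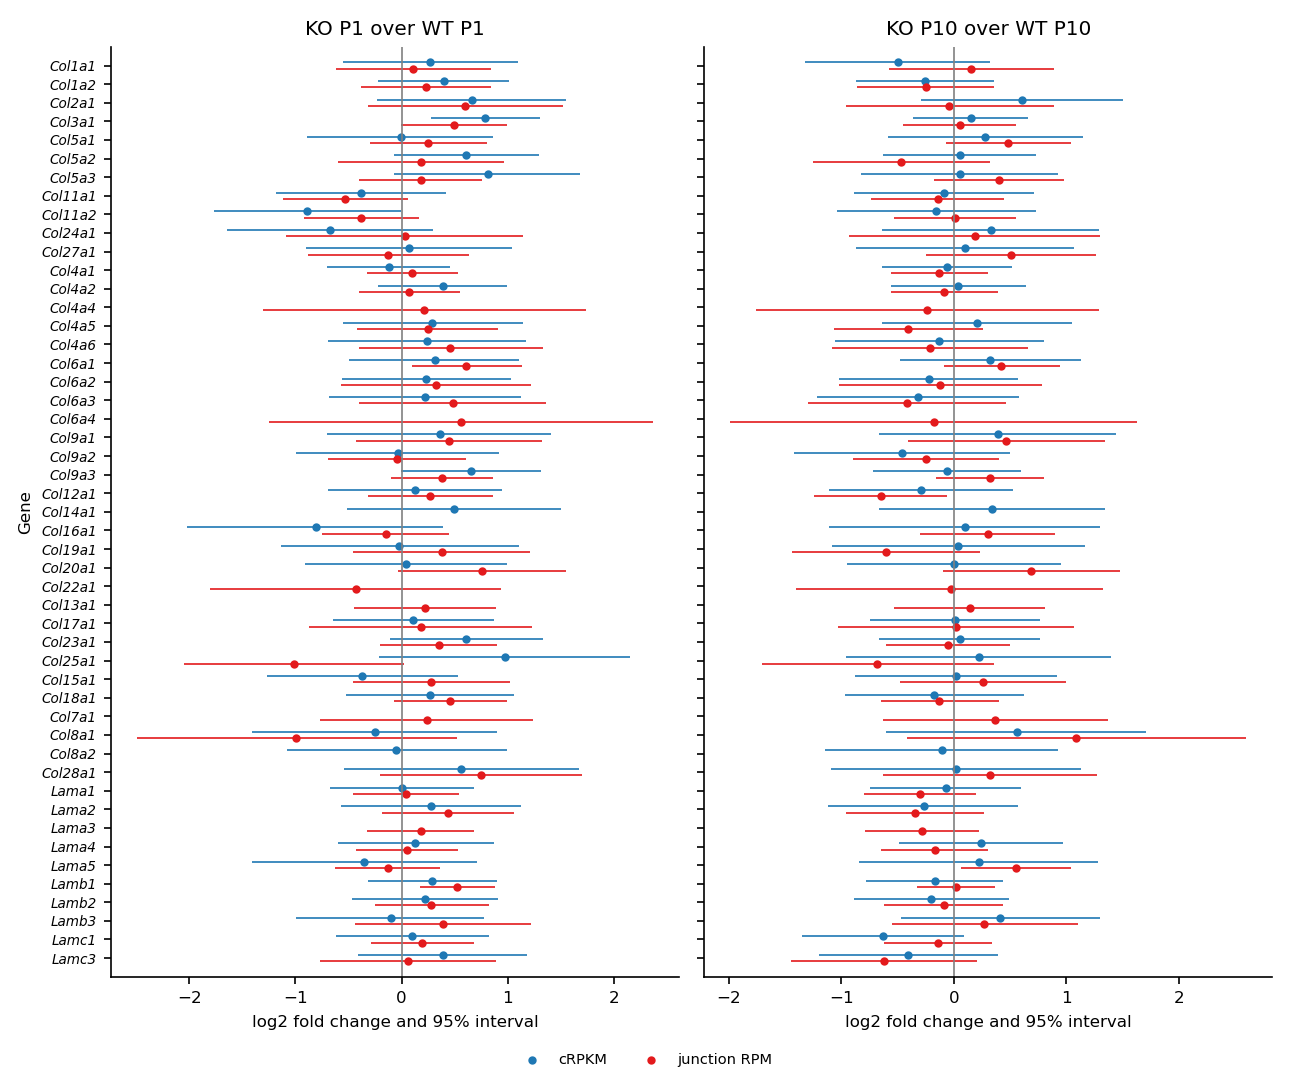
Log2 fold change of knockout over wild type at P1 (left) and P10 (right) for the tested genes, in cRPKM (blue) and junction RPM (red), with lines for the 95% interval. No gene was called in either panel, and the cRPKM estimates run from −0.89 to 0.97 at P1 and from −0.63 to 0.61 at P10.

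The proteins that fold, anchor, bind and cut collagens and laminins were followed as 5 lists, and between knockout and wild type none of their members was called at P1 or at P10 by limma in either measure, with at most 3 of a list at an unadjusted p below 0.05. Between wild-type P30 and P1, 8 of 16 basement membrane partners fell and 1 rose in cRPKM (median −1.63), and 12 of 14 fell and 1 rose in junction reads. Over all tested genes 15.8% fell and 9.66% rose in cRPKM, and 37.2% fell and 19.9% rose in junction reads. Nid1, the nidogen that links laminin to collagen IV, averaged 10.1 cRPKM at P30 and 75.1 at P1 in wild type (−2.72, SE 0.24, adjusted p = 8.20e-06). The heparan sulfate proteoglycan Agrn averaged 8.61 and 52.7 cRPKM (−2.49, adjusted p = 1.52e-05) and Smoc1, a secreted calcium-binding protein of basement membranes, 2.43 and 31.1 (−3.25, adjusted p = 3.22e-05). Of other fibrous matrix genes 7 of 14 fell and none rose (median −1.19), and 8 of 10 fell in junction reads. The microfibril gene Mfap4 averaged 38.7 cRPKM at P1, 110 at P10 and 1.25 at P30 in wild type (P30 against P1 −4.07, adjusted p = 7.08e-06). Mfap2 averaged 39.7, 6.08 and 1.94 cRPKM, and Postn, a matrix adaptor, 8.19, 2.86 and 0.717.

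The other 3 lists are set against the same shares of all genes, 15.8% lower and 9.66% higher in cRPKM and 37.2% lower and 19.9% higher in junction reads. The counts of maturation genes in cRPKM, of receptors in both measures and of proteases lower in cRPKM and higher in junction reads lay near those shares and are not a result about the lists. Of collagen maturation genes 5 of 27 fell and 1 rose (median −0.49), and 13 of 25 fell and 3 rose in junction reads. The collagen chaperone Serpinh1 averaged 15.8 cRPKM at P30 and 61.3 at P1 in wild type (−1.90, SE 0.17, adjusted p = 9.97e-06), and P4hb, a subunit of prolyl hydroxylase, 37.0 and 75.4 (−1.01, adjusted p = 0.00106). Of receptors 3 of 17 fell and 1 rose (median −0.40), and 7 of 17 fell and 4 rose in junction reads. Gpr56, a receptor of collagen III on glia and neural precursors, averaged 16.8 and 61.6 cRPKM (−1.82, adjusted p = 1.14e-05). The integrin subunit Itgb1 (24.4 and 50.6) and dystroglycan, Dag1 (35.3 and 62.7), fell less (−1.02 and −0.82). Of proteases and their inhibitors 3 of 15 fell and 3 rose (median −1.13), and 6 of 10 fell and 2 rose in junction reads. The inhibitors Timp4 (102 cRPKM at P30 and 24.04 at P1, 2.05, adjusted p = 3.82e-05) and Timp2 (12.97 and 43.6, −1.67, adjusted p = 6.38e-05) moved in opposite directions.

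Splicing was read as PSI, the percent of reads that include an exon or retain an intron. Of 299 cassette exons in 50 of the genes, 262 were covered by 10 reads or more in 2 libraries or more, and 155 of these were included to at least 99% on average, 44 to between 5% and 95% and 20 to under 5%. Of 1636 introns with that coverage, 114 were retained to between 5% and 95% and 1522 to under 5%. With that cover in 6 libraries or more, 31 exons in 15 genes had a mean PSI of 5 to 95, of which 7 were in Col13a1 and 5 in Col25a1, both transmembrane collagens. An event was called at an adjusted p below 0.05 and a difference of at least 10 points.

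Exons whose inclusion was called as different between ages are shown with their positions, and beside them a 6 nt exon of Lama2 that was not called. A 12 nt exon of Lama2 (chr10:26741267-26741278 in mm9, chr10:27021461-27021472 in GRCm38, minus strand) and the 6 nt exon of the same gene (chr10:26772834-26772839 in mm9, chr10:27053028-27053033 in GRCm38) are coding microexons, shown in capitals between the last and first 15 bases of their neighbours in the GENCODE M21 transcript.
Lama2 12 nt exon: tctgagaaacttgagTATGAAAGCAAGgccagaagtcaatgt
Lama2 6 nt exon: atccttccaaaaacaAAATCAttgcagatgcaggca
The 66 nt exon of Col13a1 (chr10:61352827-61352892 in mm9, chr10:61890079-61890144 in GRCm38, minus strand) is shown in the same way, and 0 of its 22 codons code for glycine.
Col13a1 66 nt exon: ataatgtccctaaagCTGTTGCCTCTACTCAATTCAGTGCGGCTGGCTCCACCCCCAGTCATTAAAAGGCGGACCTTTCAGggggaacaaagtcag
The 45 nt exon of Col4a5 (chrX:137993338-137993382 in mm9, chrX:141558795-141558839 in GRCm38, plus strand) is pure helix repeat, with its 5 glycine codons of 15 in capitals.
Col4a5 45 nt exon: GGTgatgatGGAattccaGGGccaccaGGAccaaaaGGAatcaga

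Between wild-type P30 and P1, 2 events rose and 1 fell among 41 tested in 20 of the genes, where 10% of all 35022 events were called. This count lay near that share and is not a result about these genes as a set. Inclusion of the 12 nt Lama2 exon was 0% in both wild-type P1 libraries, 0% and 5.52% at P10 and 28.9% and 27.6% at P30, with 43.2% in the P30 library that had only 9 reads. It was higher at P30 than at both younger ages (P30 against P1 28.2 points, adjusted p = 0.00351, and P30 against P10 25.5 points, adjusted p = 0.0304), at an age when the level of Lama2 had not been called as changed. The knockout had 9.79%, 10.1% and 5.52% at P10, above or equal to the wild-type values, and 3.57%, 4.28% and 0% at P1. The 6 nt Lama2 exon averaged 72.6% in wild-type P1 libraries, 85.6% at P10 and 91.0% at P30 and was not called. Inclusion of the Col4a5 exon was 100% and 97.4% at P1, 91.4% and 95.1% at P10 and 92.9%, 79.4% and 83.1% at P30 (P30 against P1 −13.6 points, adjusted p = 0.0276). A 134 nt intron of Col9a2 (chr4:120725529-120725662 in mm9) was retained to 10.03% and 8.87% at P1, 19.1% and 12.4% at P10 and 48.5%, 53.9% and 44.6% at P30 (39.6 points, adjusted p = 0.00921).

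Between wild-type P30 and P10, 3 events rose and 4 fell among 61 tested in 22 of the genes, where 2.98% of all events were called. The 66 nt Col13a1 exon was included to 76.3%, 86.1% and 81.8% at P30 against 34.8% and 17.2% at P10 (55.5 points, adjusted p = 0.0269), with 12 to 33 reads per library. An 858 nt intron of Col16a1, a fibril-associated collagen (chr4:129756962-129757819 in mm9), was retained to 13.04% and 14.3% at P30 against 80.8% and 69.2% at P10 (−61.4 points, adjusted p = 0.00599). Its P1 value was 47.6% in the library with enough reads. The 211 nt and 97 nt introns of the same gene fell alongside (−37.6 and −34.1 points, adjusted p = 0.03 and 0.0304), and a 513 nt intron of Col18a1 fell by 14.03 points (adjusted p = 0.0233). A 9248 nt intron of Col9a1 was at 69.2% and 66.7% at P30, from 11 and 10 reads, against 4.0% and 5.98% at P10 (63.0 points, adjusted p = 0.00447). Of these 7 calls, leaving out library 5 or library 1 left 1, library 6 or library 2 left 4 and library 3 left 2, and of the 3 calls against P1, leaving out library 8 or library 3 left 1. Neighbouring introns of Col16a1 share reads of the same transcripts and are not separate evidence.

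**Figure D5:**
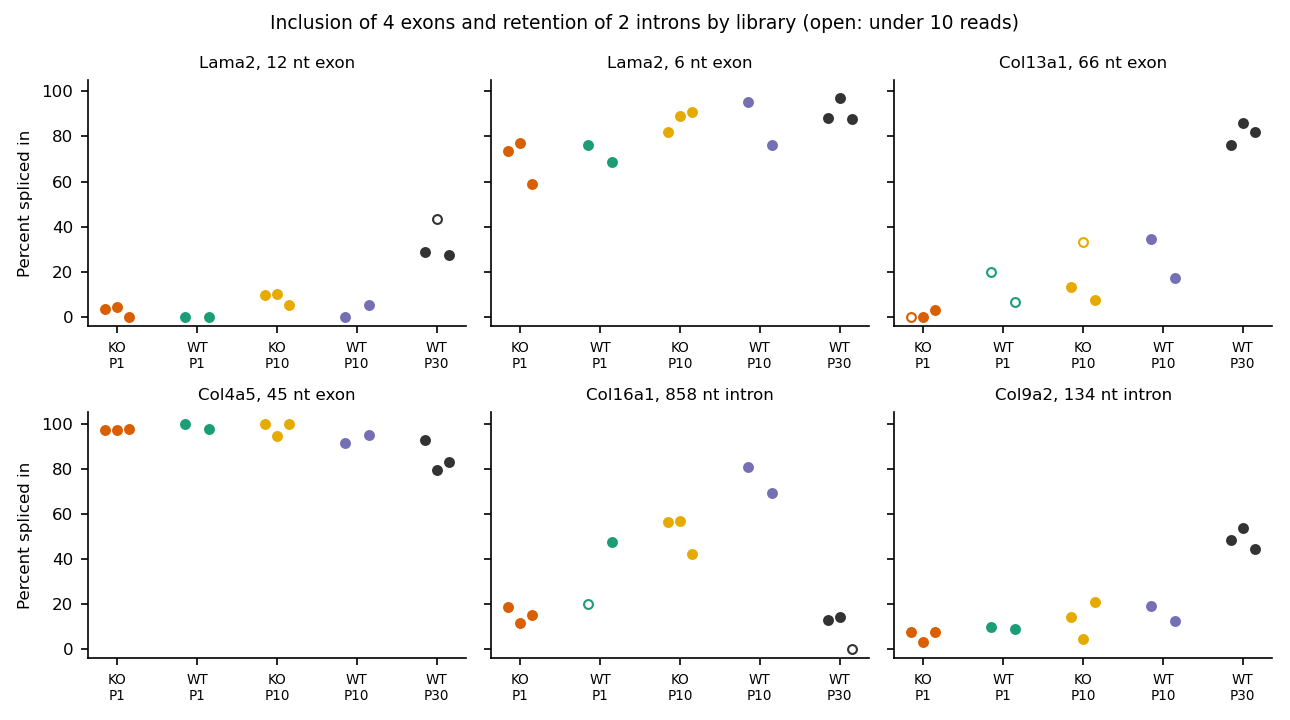
Percent spliced in (vertical axis, 0 to 100) of 4 exons and 2 introns in each library (points, open where under 10 reads) for knockout P1, wild-type P1, knockout P10, wild-type P10 and wild-type P30. The 12 nt Lama2 exon and the 66 nt Col13a1 exon stand highest at P30, and the 858 nt Col16a1 intron is highest at P10 in wild type (80.8% and 69.2%).

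Between P10 and P1 no event of these genes was called in wild type (60 tested, 8 at an unadjusted p below 0.05, smallest adjusted p 0.199, against 0.676% of all events called) or in knockout (70 tested, 6, smallest adjusted p 0.0594, 0.867%). Of all events 4384 of 36379 in wild type and 4364 of 38510 in knockout had an unadjusted p below 0.05. Without Sam68, 0 of 81 events in 28 genes were called at P1 by limma, with 2 at an unadjusted p below 0.05 (0.0242% of all events called), and 0 of 82 at P10, with 8 (0.0309%). Of all events 1702 of 37260 at P1 and 1731 of 38894 at P10 had such a p. At P1 the smallest p belonged to a 172 nt intron of Col4a5, at 97.4%, 100% and 98.2% in knockout against 92.5% and 93.7% in wild type (adjusted p = 0.971). A 751 nt intron of Col5a3 followed, at 43.5% and 38.6% in the 2 knockout libraries with enough reads against 11.1% and 2.86% in wild type, from 10 to 18 reads (adjusted p = 1). At P10 it belonged to a 100 nt exon of Col16a1 (chr4:129726571-129726670 in mm9), at 25% and 17.7% in the knockout libraries with enough reads against 3.23% and 2.22% in wild type (18.6 points, adjusted p = 0.971). The groups did not overlap there, with 10 to 23 reads per library. The 513 nt Col18a1 intron averaged 7.39% ± 2.29 in knockout (n = 3) and 17.6% ± 5.25 in wild type (n = 2) at P10 (−10.2 points, adjusted p = 1), and a 947 nt intron of Lama1 was at 5.26% and 25% in the knockout libraries with enough reads and at 0% in both wild-type ones, from 10 to 21 reads per library.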

How the data were processed

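The 53 genes and all gene lists were chosen with earlier results of these data known. The authors deposited cRPKM (RPKM corrected for mappable positions) per gene and library, and percent inclusion (PSI) per splicing event with a text field holding the reads for and against inclusion. Per the submitters' processing notes, FastQC and Trimmomatic were used and the build was mm9; the aligner is not given in the sources used here. Samples were grouped by genotype and age from their titles.

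Expression was tested with limma 3.58.1 (R 4.3.3) on log2(cRPKM + 1), 1 fit over 5 groups with an intensity trend, for 14063 genes that averaged 1 cRPKM or more in a group, with Benjamini-Hochberg adjustment. The pseudocount understates the change of low genes. Junction reads of cassette exon events were summed per gene, with 0.5 added, as log2 RPM, for 11342 genes that averaged 10 reads or more in a group. A read can count in several events. Splicing was tested with limma on log2 odds (0.5 read added to each side), with at least 10 reads per library in at least 2 libraries per group and a mean PSI of 5 to 95. Depth behind cRPKM was estimated from the smallest steps between low values, 0.0957 to 4.05 M reads per library, and junction reads were 10.5 to 18.4 M. The tests were tried on simulated data. Exons were matched to GENCODE M21 (GRCm38) by length and by the spacing of their neighbours' ends.

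Library values are given for the members with the largest called change in each comparison (up to 8 each way), else for the 4 with the smallest p, and for fixed network and fibrillar chains. Members given only by counts or means did not meet this rule. Members described in junction reads alone were picked after their values were seen. Alternatives were a pseudocount of 0.1, no filter, only the 2 groups compared, TMM rescaling, library weights, junction reads, each library left out, at least 20 reads, a difference of 20 points and a mean PSI of 1 to 99. Leaving out the 5 shallow libraries, and each library in the junction test, were chosen after seeing the data. One gene counted among the members is not reported here by name.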

Additional observations from a re-analysis of the deposited data

How the results depend on the processing

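The counts of called genes moved with the settings. Between wild-type P30 and P1 the 18 called genes became 28 with library weights, 29 with only the 2 groups compared, 29 without the 5 shallow libraries (chosen after seeing the data) and 39 in junction reads, and 12 to 16 when 1 library was left out. Between P30 and P10 the 11 became 17 with weights, 17 with only the 2 groups, 7 without the shallow libraries, 33 in junction reads and 4 to 9 without 1 library. For P10 against P1 the count was 0 in wild type and 14 in junction reads. In knockout the 7 became 2 with a pseudocount of 0.1, 12 with weights, 28 in junction reads, 1 with only the 2 groups, 0 without the shallow libraries and 1 to 9 without 1 library. The junction counts, left-out libraries chosen after seeing the data, were 9 to 12 of 14 for wild-type P10 against P1 (9 without library 6) and 21 to 34 of 33 for P30 against P10. Of 7 splicing calls between P30 and P10, 2 were called with at least 20 reads, 3 with a mean PSI of 1 to 99, 2 with only the 2 groups and 1 to 4 without 1 library, and of 3 against P1, 1 to 2. The causes were not tested. Where 1 library was left of a group, it was assumed to vary like the others.

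The knockout difference of Col2a1 at P10 turned to −0.04 in junction reads. That of Col1a1 turned to 0.15 in junction reads, 0.27 without the shallow libraries and 0.04 without library 5, in a range of −1.03 to 0.04 with 1 library left out. The other differences of genes and events chosen by the naming rule kept their sign under the alternatives run for them. Over all members tested in both measures, cRPKM and junction reads gave the knockout difference the same sign for 33 of 42 at P1 and 29 of 42 at P10. The knockout counts stayed at 0 under each of them. No paired analysis was possible because the library numbers are not shared between groups.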
